A study of Homo sapiens with 6 samples.

Results

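Of 19498 genes measured in K562 cells, 69 were expressed in cells labelled ACK KO and near silent in wild-type (WT) cells. A gene was taken when its normalised value averaged 50 or more over the 3 ACK KO libraries and stayed under 10 in each of the 3 WT libraries. The thresholds were passed by 84 genes. From these, 7 genes with symbols starting LINC, 3 with symbols starting ZNF, and SNRPN, PDK4, EPB41L3, CALD1 and DIAPH2 were left out. The genes were thus selected on the values of both genotypes, so their difference between genotypes is given below as a description, with no test.

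The samples were K562 cells with the ACK KO genotype and K562 cells with the WT genotype, each with 3 libraries that the labels call biological replicates. K562 is an established human line from a chronic myeloid leukaemia, driven by the BCR::ABL1 fusion kinase, and ACK is a cytoplasmic tyrosine kinase and Cdc42 effector encoded by TNK2 whose link to transcription by STAT5 is the subject of the series. Both genotypes were cultured in serum-containing RPMI medium, and stranded libraries were made from 500 ng of RNA after capture of polyadenylated transcripts. The labels do not say how ACK was removed or whether the ACK KO cells are 1 clone, so the genotype and the history of the line cannot be told apart.

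Values are gene-level normalised read counts that sum to between 43.5 M and 49.5 M in ACK KO libraries and between 46.7 M and 53.3 M in WT libraries. Read depth is unknown, so errors are the spread between 3 libraries, and p-values measure only that spread, which may be technical. In bulk RNA, more cells with a transcript and more transcript per cell cannot be told apart. TNK2 itself had values of 741, 506 and 598 in the libraries labelled ACK KO, against 829.7, 612.5 and 641.6 in WT, a log2 difference of -0.18 (SE 0.21; limma adjusted p = 0.681). The TNK2 transcript therefore does not check the labels. Of 13 K562 marker genes, all 13 passed the filter on low values. The highest in ACK KO was HBG2, a fetal globin gene, at 29260.0 ± 11050.0 in ACK KO and 28150.0 ± 13020.0 in WT, and the highest in WT was TFRC, the transferrin receptor gene, at 25950.0 ± 5931 in ACK KO and 38870.0 ± 15240.0 in WT (SD, n = 3 each).

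Genes of the germ line and of single differentiated tissues are kept silent in most cell types by DNA methylation of CpG-rich promoters, by Polycomb complexes that mark histone H3 at lysine 27, and by the absence of their activators. MAGEA genes of the X chromosome, silent in adult tissues other than testis and often expressed in tumours, are a well-known example of the first kind, and the HOX clusters of the second. K562 cells have erythroid and megakaryocytic features, and testis, kidney, brain, cartilage and skin are tissues of other lineages. The WT cells still expressed some genes known from testis, with WT means of 72730 for PRAME and 3796 for MAGEA3, both cancer-testis genes. MAGEB2, another cancer-testis gene, averaged 8.53 in WT, and the epithelial gene EPCAM averaged 4791.

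The 69 genes comprised 48 protein-coding genes, 6 long intergenic RNAs, 2 antisense RNAs, 1 processed transcript, 5 pseudogenes and 1 locus that still awaited experimental support in the GENCODE 29 annotation. The remaining 6 identifiers were not in GENCODE 29, and 9 of the 69 had no gene symbol in the name table. In ACK KO cells 31 of the genes averaged 100 or more and 5 averaged 500 or more, among them SCML1, JPH1, SEC14L6 and PPP1R14C. In WT cells 13 genes were listed at 0 in all 3 libraries and 38 had a value above 0 in all 3. As the plot of all genes shows, the set lies in a thin corner of the data, since 1981 genes of the file stayed under 10 in all 3 WT libraries and 4.24% of those passed the ACK KO threshold.

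**Figure D1:**
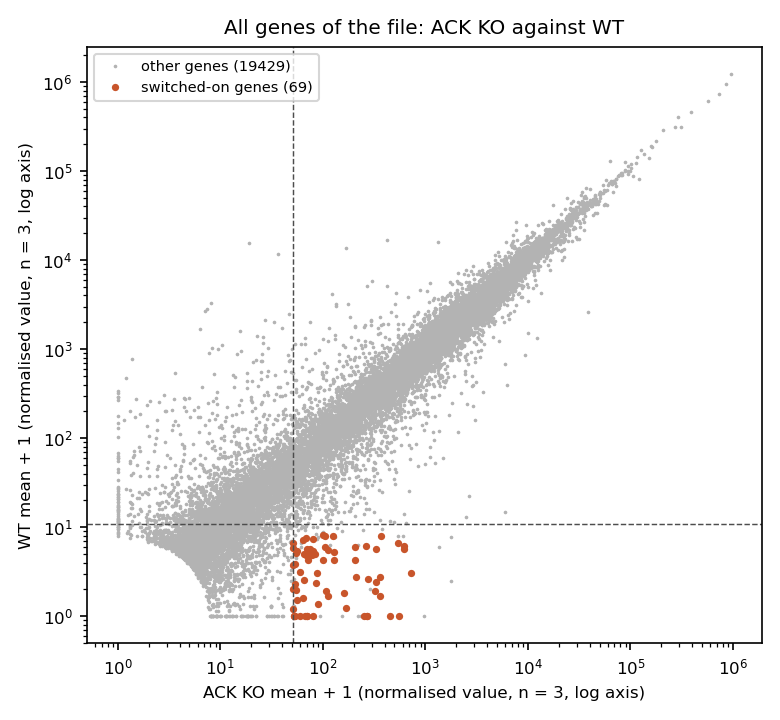
Mean normalised value + 1 of each of 19498 genes in ACK KO cells (horizontal, log axis, n = 3) against WT cells (vertical, log axis, n = 3). Orange points are the 69 switched-on genes, grey points the other genes, and dashed lines mark an ACK KO mean of 50 and a WT mean of 10. The orange points fill the lower right corner because the thresholds define it, up to an ACK KO mean of 724 for SCML1.

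Of the 69 genes, 68 passed the filter on low values (10 or more in at least 3 of 6 libraries). In these 68 genes every ACK KO library lay above every WT library, against 15.2% of all 16658 genes tested. The thresholds set the count, and nothing is read from it. Among the 56 tested genes with some WT signal, the difference on the log2(value + 1) scale ran from 2.91 for HOXA5 to 8.24 for SCML1 with a median of 4.74, against a median of -0.02 over all genes tested. The one gene that did not pass, RPL39P3, a processed pseudogene of the ribosomal protein gene RPL39, had 206 in ACK KO replicate 1 and 0 in the other 5 libraries. All of its 31-base transcript words also occur in another gene, so its reads cannot be assigned with certainty.

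The promoters of 5 of these genes, chosen as examples by no set rule, are printed from RefSeq on the GRCh38.p14 build. Each window runs from 250 bases before to 50 bases after the RefSeq start, 5′ to 3′ on the strand of the gene, with every CG dinucleotide in capitals. The first 4 are CpG-rich (GC content of 50% or more with an observed over expected CpG ratio of 0.6 or more) and the SEC14L6 promoter is not. The CROT window also holds the start of TP53TG1, a non-coding RNA gene on the opposite strand whose own window was CpG-rich too.
SCML1 at chrX:17737243-17737542 on the plus strand: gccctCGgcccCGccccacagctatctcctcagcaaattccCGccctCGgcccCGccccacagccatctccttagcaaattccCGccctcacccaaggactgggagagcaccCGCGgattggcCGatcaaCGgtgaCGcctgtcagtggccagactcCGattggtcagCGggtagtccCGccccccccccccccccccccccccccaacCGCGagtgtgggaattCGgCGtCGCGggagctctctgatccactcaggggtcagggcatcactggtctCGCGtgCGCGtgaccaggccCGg
SPATA22 at chr17:3471770-3472069 on the minus strand: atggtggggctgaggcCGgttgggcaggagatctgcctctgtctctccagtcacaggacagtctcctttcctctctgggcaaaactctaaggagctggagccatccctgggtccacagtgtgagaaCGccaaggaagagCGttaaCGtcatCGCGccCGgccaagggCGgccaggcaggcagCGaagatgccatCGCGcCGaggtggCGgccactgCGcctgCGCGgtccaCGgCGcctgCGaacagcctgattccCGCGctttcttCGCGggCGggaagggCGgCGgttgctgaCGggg
MORC1 at chr3:109118085-109118384 on the minus strand: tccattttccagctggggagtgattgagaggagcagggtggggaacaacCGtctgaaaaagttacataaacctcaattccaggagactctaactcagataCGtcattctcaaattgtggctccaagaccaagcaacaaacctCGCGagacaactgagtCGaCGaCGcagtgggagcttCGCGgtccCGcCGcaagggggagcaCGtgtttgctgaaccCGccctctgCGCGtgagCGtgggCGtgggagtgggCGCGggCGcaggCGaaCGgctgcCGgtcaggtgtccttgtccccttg
CROT at chr7:87345414-87345713 on the plus strand: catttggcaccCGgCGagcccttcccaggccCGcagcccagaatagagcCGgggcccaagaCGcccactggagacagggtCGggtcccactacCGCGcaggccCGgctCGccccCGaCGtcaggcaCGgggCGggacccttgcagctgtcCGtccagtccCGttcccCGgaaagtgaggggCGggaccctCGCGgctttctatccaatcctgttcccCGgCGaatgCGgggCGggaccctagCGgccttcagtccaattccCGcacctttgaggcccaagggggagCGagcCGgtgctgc
SEC14L6 at chr22:30546692-30546991 on the minus strand: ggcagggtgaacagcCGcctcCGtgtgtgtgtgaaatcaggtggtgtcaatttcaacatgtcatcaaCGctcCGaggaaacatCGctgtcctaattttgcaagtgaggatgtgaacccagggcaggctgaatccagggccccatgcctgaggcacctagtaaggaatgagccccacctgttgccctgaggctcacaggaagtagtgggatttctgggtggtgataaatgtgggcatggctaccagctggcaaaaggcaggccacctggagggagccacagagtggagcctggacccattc
The printed windows hold 25 CG dinucleotides for SCML1, 27 for SPATA22, 23 for MORC1, 28 for CROT and 5 for SEC14L6.

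Promoters of 39 switched-on genes were in the table, and 23 of them (59.0%) were CpG-rich. The share was 45.7% of 46 promoters of genes switched off by the mirrored thresholds, 81.7% of 9826 promoters of genes with an ACK KO mean of 50 or more, 46.2% of 692 promoters of genes that were under 10 in every WT library and under the ACK KO threshold, and 46.9% of all 27305 promoters in the table. Among the densest were those of SUSD4 with 55 CG dinucleotides and of ASXL3 and F3 with 38 each, while that of INHBA held 1 and that of LIPE 3. The STAT-type motif TTCNNNGAA, which reads the same on both strands, stood in 1 of the 39 windows (2.56%), that of DMKN, against 7.88% of all windows. The GATA-type words AGATAA or TGATAA, searched on both strands, stood in 6 of the 39 (15.4%), those of SEC14L6, HDGFL1, BMX, INHBA, AGMO and BRINP3, against 16.6% of all windows. The AP-1-type motif TGANTCA stood in 2 (5.13%), those of TM4SF19 and F3, against 7.76%. A match or its absence describes these 300 bases only, and whether any promoter was methylated or bound was not measured here.

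The 8 germ-cell and MAGE genes had a median ACK KO mean of 185. SPATA22 acts in meiotic recombination as a partner of the single-strand DNA-binding protein MEIOB, and its gene lies at chr17:3440019-3513852 on the minus strand. Its values were 379, 342 and 396 in the ACK KO libraries, against 6.99, 4.63 and 9.05 in the WT libraries. The ACK KO libraries were even, with a coefficient of variation of 7.47%. Of its transcript words of 31 bases, 22.4% occur in other genes, most of them in the overlapping gene TRPV3. MORC1, an ATPase of male germ cells that in mice represses transposons, lies at chr3:108958239-109118142. It had 469, 246 and 260.3 in ACK KO, against 1.06, 1.74 and 0 in WT. Replicate 1 stood clearly above the other two ACK KO libraries. SPEF2, a protein of the sperm tail and of motile cilia at chr5:35617844-35814611, showed the same unevenness with 636, 229.6 and 214 in ACK KO, against 4.23, 0.575 and 0.544 in WT. C12orf40, which is expressed in testis and whose mouse counterpart is needed for meiotic crossovers, had 348, 235 and 223 in ACK KO and was listed at 0 in all 3 WT libraries. HDGFL1, a relative of hepatoma-derived growth factor, had 164, 60.6 and 76.1 in ACK KO, against 5.76, 1.801 and 2.24 in WT.

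The 3 MAGE genes, all on chromosome X, had ACK KO means under 100. MAGEA1, the founding gene of the family and a classical cancer-testis antigen, averaged 50.9 in ACK KO and was listed at 0 in every WT library, with 81.4, 43.7 and 27.7 in the ACK KO replicates. MAGED4B averaged 58.3 in ACK KO and was likewise at 0 in WT, but 96.5% of its transcript words occur in its near-identical copy MAGED4, so the 2 genes cannot be told apart here. MAGEE1 averaged 53.7 in ACK KO, with a highest WT value of 6.71. Neither of these last 2 is restricted to germ cells, and MAGEE1 is known from brain and muscle. Beside MAGEA1, 12 other cancer-testis genes passed the filter, of which 1 rose and 1 fell at a limma adjusted p under 0.05, with a median log2 difference of 0.205. Over all genes tested 10.3% were called in either direction, 5.37% higher and 4.96% lower, so the 2 of 12 are near that share. MAGEC2, also a MAGE gene of the X chromosome, rose in ACK KO by a log2 difference of 1.03 (SE 0.21; limma adjusted p = 0.0268). It kept the call in only 3 of 6 fits without a single library, with limma adjusted p up to 0.123 without ACK KO replicate 3. XAGE1A fell, at 42.5, 49.2 and 51.97 in ACK KO against 334, 701 and 606 in WT (-3.42, SE 0.32; limma adjusted p = 0.00134). With the replicate number as a block, a fit that called 39.7% of all genes tested, 2 rose and 2 fell. Of 10 tested germ-line genes known to be silenced by promoter methylation, none was called by limma (2 had an unadjusted p under 0.05; median log2 difference -0.01). The block called 2 higher and 1 lower. The higher ones were SYCP2 (2.82, SE 1.09; limma adjusted p = 0.1745, 0.0024 with the block) and STAG3 (1.205, SE 0.52; limma adjusted p = 0.219, 0.0066 with the block). MOV10L1 was lower (-2.15, SE 0.58; limma adjusted p = 0.067, 0.0115 with the block). The 14 of 33 genes of that list with a value summed to between 6108 and 6576 in ACK KO and between 5250 and 6831 in WT. The highest of them were NLRP2 and TEX15, with ACK KO means of 2870 and 2414 and WT means of 2598 and 2800.

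The 8 genes of nuclear and RNA regulators were led by SCML1, a SAM-domain relative of the Polycomb protein Sex comb on midleg with its highest normal expression in testis. At chrX:17737449-17754988 on the plus strand it had 781, 695 and 696 in ACK KO, against 4.74, 1.38 and 0 in WT. Its mean normalised value in ACK KO was the highest of the set, 724 ± 49.1, against 2.04 ± 2.44 in WT (SD, n = 3 each). ASXL3, a brain-enriched cofactor of the BAP1 deubiquitinase that acts on histone H2A, had 289.8, 139 and 206 in ACK KO, against 1.64, 0 and 3.68 in WT. ZC3HAV1L, a short relative of the antiviral RNA-binding protein ZAP, had 219, 311 and 267 in ACK KO and was at 0 throughout WT. Here replicate 1 was the lowest ACK KO library. BHLHE41, a helix-loop-helix repressor of the circadian clock also called DEC2, had 172, 66.2 and 246 in ACK KO, against 1.65, 0.775 and 0 in WT. Its ACK KO libraries spread widely, with replicate 2 the lowest. The other members were ZC3H12B, a CCCH zinc finger protein of the Regnase family, with an ACK KO mean of 82.9 and a highest WT value of 8.68, and THAP10, a THAP-domain DNA-binding protein, with an ACK KO mean of 65.3 and 0 throughout WT. SLFN5, an interferon-inducible Schlafen protein, averaged 52.1 in ACK KO with a highest WT value of 4.66, and rested mostly on replicate 1 (105, 34.3 and 17.2 in ACK KO). HOXA5, a homeobox transcription factor of body patterning, averaged 50.6 in ACK KO with a highest WT value of 6.73.

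Relatives of the nuclear regulators were taken from 2 lists. Among 12 other tested genes of SCM and MBT domain proteins, the Polycomb-related family of SCML1, limma called none (1 had an unadjusted p under 0.05), against 10.3% of all genes tested called in either direction, and with the block, which called 39.7% of all genes tested, 3 were higher and 2 lower. Their median log2 difference was 0.02, against -0.02 over all genes tested. Among 7 other tested genes around ZAP, with a median of 0.23, 2 were called higher. PARP12 had 1454, 1246 and 1296 in ACK KO, against 720.4, 746 and 688 in WT (log2 difference 0.89, SE 0.14; limma adjusted p = 0.00942). PARP11 had 565, 378 and 371 in ACK KO, against 158, 42.8 and 59.7 in WT (2.52, SE 0.49; limma adjusted p = 0.0223). Both code for PARP-family enzymes. Of 6 fits without a single library, PARP12 kept the call in 4 and PARP11 in 1. The limma adjusted p was highest without WT replicate 3, at 0.0579 for PARP12 and 0.0973 for PARP11. The block called 3 of the 7 higher and 1 lower.

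The 8 secreted proteins and receptors came from very different tissues. SOSTDC1, a secreted antagonist of BMP and WNT signalling in kidney and tooth, had 130.2, 71.9 and 107 in ACK KO, against 8.12, 2.88 and 4.12 in WT. NPW, the precursor of neuropeptide W, was even across replicates at 99.4 ± 3.85 in ACK KO (SD, n = 3), with a highest WT value of 9.05. Starters of both blood clotting and clot dissolution were in the set. F3, tissue factor, averaged 69.2 in ACK KO with a highest WT value of 5.88, and PLAT, tissue plasminogen activator, averaged 70.9 in ACK KO with a highest WT value of 4.82. SUSD4, a membrane inhibitor of complement, averaged 62.5 in ACK KO with a highest WT value of 0.947. INHBA, whose product forms activin A, averaged 50.7 in ACK KO with a highest WT value of 4.69. BRINP3, a neural protein, averaged 50.2 in ACK KO with a highest WT value of 0.614.

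The 7 genes of adhesion and matrix held 2 protocadherins, cadherin-like receptors best known from neurons. PCDH10, of the delta group, lies at chr4:133149315-133208606 and had 260.1, 533 and 559.7 in ACK KO, against 0 in all 3 WT libraries. Replicate 1 was the lowest. PCDHB5, from the clustered beta group, had 111, 116 and 157 in ACK KO, against 1.92, 3.601 and 4.5 in WT. TM4SF19, a small multi-pass membrane protein known from osteoclasts, had 194, 188 and 228 in ACK KO, against 1.62, 6.92 and 1.39 in WT, and shares 46.7% of its transcript words with other genes, mostly a read-through transcript. JAM3, a junctional adhesion molecule, averaged 88.2 in ACK KO with a highest WT value of 1.08, and its ACK KO libraries differed strongly (149.7, 32 and 82.9 in ACK KO). The epithelial basement membrane gene LAMB3 averaged 78.4 in ACK KO with a highest WT value of 6.25. DMKN, dermokine of the skin, averaged 76.8 in ACK KO with a highest WT value of 4.45. COL2A1, the main collagen of cartilage, averaged 55 in ACK KO with a highest WT value of 7.597. Of the 2 other delta protocadherins tested, PCDH9 rose, at 384, 257 and 240.4 in ACK KO against 66.6, 60.2 and 97.9 in WT (1.96, SE 0.30; limma adjusted p = 0.00942). Of the 2 tested genes of the SPARC family of matrix proteins, SPARC rose, at 5947 ± 1460.0 in ACK KO against 13.7 ± 4.46 in WT (SD, n = 3 each; log2 difference 8.68, SE 0.31; limma adjusted p = 4.32e-05). Over all genes tested limma called 5.37% higher and 4.96% lower.

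Markers of other cell types were looked up beside these genes of kidney, cartilage, skin and nerve. The 6 fibroblast markers with a value summed to between 54970 and 62590 in ACK KO and between 45430 and 49050 in WT, and VIM, which codes for vimentin, averaged 55320.0 in ACK KO and 41290.0 in WT. VIM was called higher only with the block (limma adjusted p = 0.0909, 0.00266 with the block). Of 3 tested, COL1A1 rose (133 ± 65.7 in ACK KO, 16.3 ± 14.3 in WT; limma adjusted p = 0.0333, up to 0.123 without ACK KO replicate 3) and FN1 fell (2980.0 ± 529 in ACK KO, 6066 ± 1174 in WT; limma adjusted p = 0.0209, up to 0.0809 without ACK KO replicate 3). COL1A1 kept the call in 1 of 6 fits without a single library and FN1 in 2. The 9 epithelial markers with a value, of which KRT8 had the highest value in ACK KO and KRT18 in WT, summed to between 24920 and 32810 in ACK KO and between 15280 and 21440 in WT. Of 6 tested, KRT19 rose (2565 ± 449.6 in ACK KO, 238 ± 104 in WT; limma adjusted p = 0.00104) and KRT8 rose (12070.0 ± 2775 in ACK KO, 5179 ± 582 in WT; limma adjusted p = 0.0127, up to 0.0593 without ACK KO replicate 3). KRT8 kept the call in 4 of 6 fits without a single library. The keratin gene KRT18 was called higher only with the block (10030.0 ± 2018 in ACK KO, 8685 ± 2619 in WT; limma adjusted p = 0.674, 0.0468 with the block). EPCAM, an epithelial adhesion molecule, was called in neither fit (4923 ± 279 in ACK KO, 4791 ± 417 in WT; limma adjusted p = 0.885), and CDH1, the epithelial cadherin, averaged 2.61 in ACK KO and 6.13 in WT. The 5 neural markers with a value summed to between 227 and 306.5 in ACK KO and between 159 and 226 in WT, with no call by limma among 2 tested, none at an unadjusted p under 0.05 or with the block, and TUBB3 the highest value. The 3 endothelial markers with a value summed to between 15.5 and 34.9 in ACK KO and between 101 and 201 in WT, and PECAM1, with the highest value in WT, fell (-3.73, SE 0.47; limma adjusted p = 0.00431). The 8 monocyte and lymphoid markers with a value summed to between 2155 and 3308 in ACK KO and between 3008 and 4660 in WT, with no call by limma among 5 tested, none at an unadjusted p under 0.05, 1 lower with the block, and CD3D the highest value in ACK KO. Of the K562 markers, HBE1, embryonic globin, rose (3.2, SE 0.27; limma adjusted p = 0.000784) and the other 12 were not called, while the block called HBE1 higher and GATA1, GFI1B and TFRC lower. The block thus called 4 of the 13 K562 markers, against 39.7% of all genes tested. For all these marker lists, limma called 10.3% of all genes tested. No value was listed for 6 of 12 fibroblast, 3 of 12 epithelial, 7 of 12 neural, 8 of 11 endothelial and 5 of 13 monocyte and lymphoid markers. These do not enter the sums above. The part of other cells in the values of the set was not tested.

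The 6 lipid and redox enzymes began with SEC14L6, a member of the SEC14 family of lipid-binding transfer proteins at chr22:30522799-30546682 on the minus strand. It had 739.9, 418 and 482 in ACK KO and was listed at 0 in all 3 WT libraries. GPX8, a peroxidase of the endoplasmic reticulum, had 313, 113 and 191 in ACK KO, against 6.77, 4.22 and 4.07 in WT. CROT, the peroxisomal carnitine octanoyltransferase that prepares shortened fatty acids for export to mitochondria, had 117, 96.5 and 97.5 in ACK KO, against 3.98, 7.53 and 9.36 in WT. SEC14L6 and GPX8 were highest in replicate 1, and CROT was even. LIPE, the hormone-sensitive lipase of fat tissue, was also even at 73.6 ± 4.49 in ACK KO (SD, n = 3), with a highest WT value of 8.93. SDR42E1, a short-chain dehydrogenase, averaged 64.3 in ACK KO with a highest WT value of 4.42, and AGMO, the monooxygenase that cleaves ether lipids, averaged 50.6 in ACK KO with a highest WT value of 9.54. Of 5 other tested SEC14-like genes, SESTD1 fell, at 542, 260.2 and 292 in ACK KO against 2021, 1626 and 1946 in WT (-2.42, SE 0.29; limma adjusted p = 0.00363), and no other was called. The 5 had a median of -0.33, and the block called 2 of them higher and 2 lower, against 10.3% of all genes tested called by limma and 39.7% with the block.

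The 11 genes of intracellular signalling and structure included 2 of the 5 with an ACK KO mean of 500 or more. JPH1 codes for junctophilin, which in skeletal muscle joins the plasma membrane to the sarcoplasmic reticulum. It had 595, 654 and 625 in ACK KO, against 6.38, 3.97 and 4.93 in WT, and was among the most even of the set. PPP1R14C, an inhibitor of protein phosphatase 1 known from brain, lies at chr6:150143076-150250357 and had 645, 405 and 583 in ACK KO, against 8.61, 3.64 and 4.49 in WT. ANKRD62, an ankyrin-repeat gene on chromosome 18, had 317, 392 and 367 in ACK KO, against 0, 0.909 and 1.12 in WT. CNTLN, centlein of the centrosome, had 380.4, 304 and 304 in ACK KO, against 3.46, 0 and 0.832 in WT. In these 4 genes the lowest ACK KO value was 304, in CNTLN. TMSB15B, a thymosin beta that binds actin monomers, had 206, 131 and 163 in ACK KO, against 0.731, 0 and 0 in WT.

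The other members of this group had ACK KO means under 100. KIAA1671 averaged 75.02 in ACK KO with a highest WT value of 4.93 and rested mostly on replicate 1 (146, 42.04 and 37.5 in ACK KO). F8A1, which codes for the huntingtin partner HAP40, was even at 68.7 ± 6.31 in ACK KO (SD, n = 3) and at 0 in WT, but shares 96.3% of its transcript words with its copy F8A3. MB21D2, of the cGAS-like nucleotidyltransferase family, averaged 68.2 in ACK KO with a highest WT value of 9.04. GFY, a Golgi protein of olfactory neurons, averaged 67.9 in ACK KO with a highest WT value of 4.68. BMX, a tyrosine kinase of the TEC family, averaged 64.97 in ACK KO with a highest WT value of 6.73. GNG11, a gamma subunit of heterotrimeric G proteins, averaged 53.5 in ACK KO with a highest WT value of 1.12. Among 15 tested genes of RAB8-type GTPases and their partners, a vesicle-traffic family that holds no member of the set, 2 rose and 2 fell, with a median of -0.16. With the block 3 were higher and 4 lower, against 10.3% of all genes tested called by limma and 39.7% with the block. RAB13 had 1904, 1553 and 1872 in ACK KO, against 11.9, 3.75 and 4.64 in WT (7.98, SE 0.41; limma adjusted p = 0.000115). DENND1C fell (-3.75, SE 0.44; limma adjusted p = 0.00316), as did RAB8B (-1.05, SE 0.13; limma adjusted p = 0.00378).

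Of 12 non-coding RNAs and pseudogenes with a symbol, 5 averaged 100 or more in ACK KO. CASC15, a long intergenic RNA on chromosome 6 named for cancer susceptibility, had 332, 200 and 251 in ACK KO, against 9.23, 2.45 and 3.92 in WT. LHFPL3-AS2 had 233, 237 and 280.4 in ACK KO and was at 0 throughout WT. HOXC13-AS, antisense to the homeobox gene HOXC13, had 126, 126 and 122 in ACK KO, against 4.79, 7.26 and 8.94 in WT, the smallest relative spread over ACK KO libraries of the whole set at 1.64%. The cytochrome P450 pseudogene CYP1D1P had 158, 83.8 and 94.03 in ACK KO, against 0, 0.906 and 1.12 in WT. SLC6A10P, a pseudogene of the creatine transporter, had 160.2, 57.5 and 103 in ACK KO, against 0, 0.808 and 2 in WT, with 42.4% of its words shared with other genes. Among those with means under 100, TP53TG1, a p53 target RNA, averaged 85.9 in ACK KO with a highest WT value of 5.14. MAP3K9-DT averaged 63.6 in ACK KO with a highest WT value of 9.09. SAMMSON, a long non-coding RNA known from melanoma, averaged 54.9 in ACK KO with a highest WT value of 1.602. MIX23P3, a processed pseudogene with 69.0% of its words in other genes, averaged 53.1 in ACK KO with a highest WT value of 1.83. PWAR5, from the imprinted Prader-Willi region, averaged 51.98 in ACK KO and was at 0 in WT. MTMR9LP averaged 79.4 in ACK KO and was at 0 in WT, and its signal came mostly from replicate 1 (178, 29.5 and 30.5 in ACK KO).

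The 9 identifiers without a symbol had ACK KO means from 50.04 to 331. The highest, ENSG00000286954, had 471, 235 and 286 in ACK KO, against 3.84, 4.504 and 5.63 in WT. The next, ENSG00000286467, had 307, 236 and 282 in ACK KO, against 2.88, 0.904 and 1.12 in WT. Neither identifier has a position in GENCODE 29. ENSG00000287364 had 93.1, 131 and 159 in ACK KO, against 4.72, 5.69 and 2.44 in WT. ENSG00000287059 had 216, 51.6 and 69.1 in ACK KO, against 8.65, 1.8 and 3.37 in WT, so its signal came mostly from replicate 1. The other 5 had ACK KO means under 100.

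**Figure D2:**
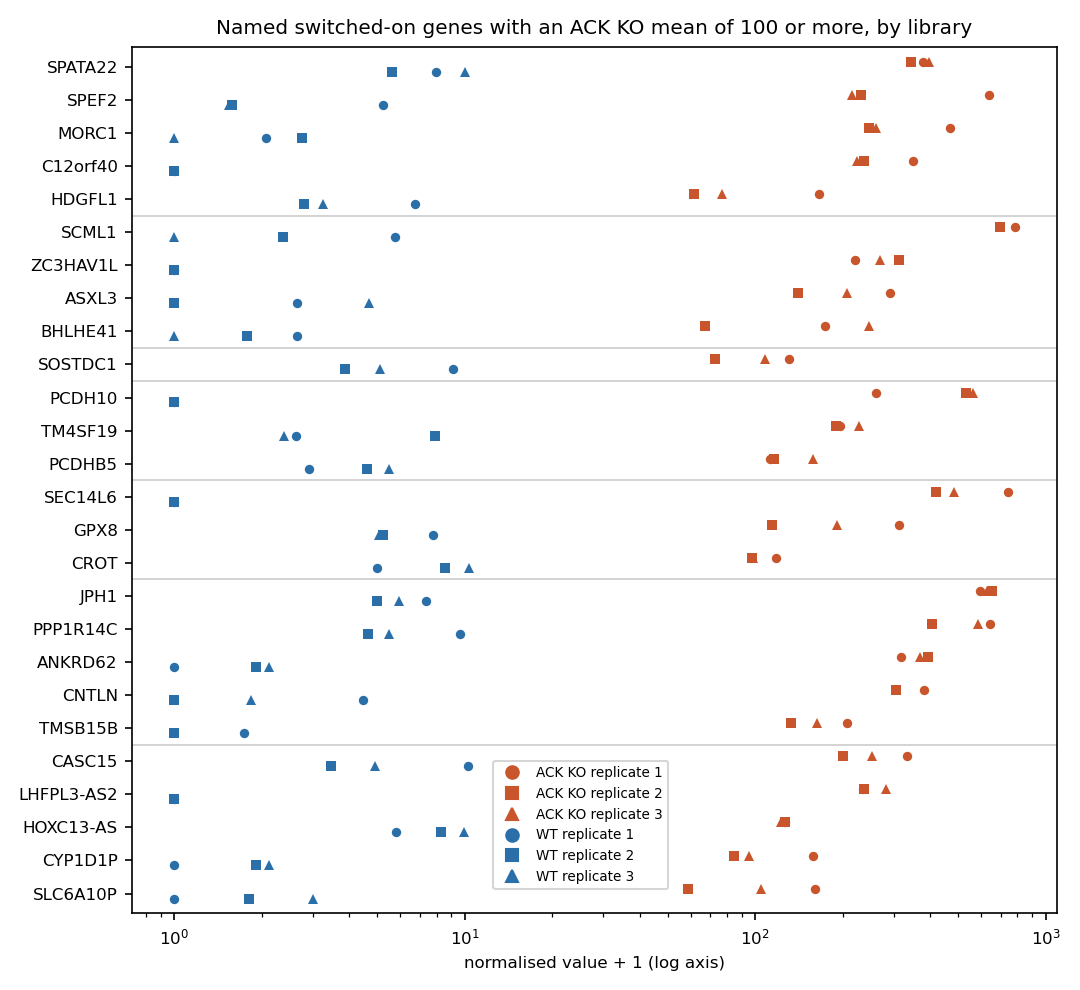
Normalised value + 1 (log axis) in each of 6 libraries for 26 named switched-on genes with an ACK KO mean of 100 or more, in ACK KO (orange) and WT (blue), with a symbol for each replicate number and grey lines between functional groups. The gap between orange and blue points largely follows from the thresholds that chose these genes. BHLHE41 has a wider orange spread than HOXC13-AS or JPH1.

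The ACK KO libraries did not share the expression of the set evenly. ACK KO replicate 1 was the highest of the 3 for 47 of the 69 genes (68.1%), against 41.1% of the 13245 genes with an ACK KO mean of 50 or more and 57.1% of 4770 other genes within the range of ACK KO means that the set spans. The ratio of replicate 1 to the mean of replicates 2 and 3 had a median of 1.38 in the set, 0.97 in all genes with a mean of 50 or more and 1.19 in the genes of the same range. The highest ratio with signal in all 3 libraries was 5.93 for MTMR9LP. The coefficient of variation over ACK KO libraries had a median of 32.9% in the set, 16.9% in all such genes and 23.6% in the genes of the same range. Without ACK KO replicate 1, 54 of the 69 genes still met both thresholds. Those that did not were KIAA1671, MTMR9LP, RPL39P3, SLFN5, MAGED4B, MAGEA1, F3, SDR42E1, BMX, HOXA5, AGMO, INHBA, PWAR5, ENSG00000286481 and ENSG00000279973. With each of the 3 ACK KO libraries required to reach 50 instead of their mean, 45 genes remained.

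Genes just inside and just outside the thresholds had close values. Just inside the ACK KO threshold were AGMO, BRINP3 and ENSG00000286481 with means of 50.6, 50.2 and 50.04, and just outside were HEG1, ENSG00000287981 and ENSG00000253123 with 49.5, 48.8 and 48.5. Just inside the WT limit were AGMO and CROT with highest WT values of 9.54 and 9.36, and just outside were ABCB4, CFHR3 and FAM171B with 10.3, 10.4 and 10.5. For comparison between genes, values were divided by exon length. The 63 genes with a length had a median ACK KO value of 29.8 per kilobase, against 273 per kilobase for 13140 genes with an ACK KO mean of 50 or more. PPP1R14C had an ACK KO value of 253 per kilobase.

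Positions were known for 63 genes, and their chromosomes were uneven. Chromosomes 7 and X held 9 genes each (14.3%), against 5.27% and 3.35% of the genes with an ACK KO mean of 50 or more. On X these were SCML1, TMSB15B, ZC3H12B, F8A1, BMX, MAGED4B, MAGEE1, MAGEA1 and ENSG00000233928. On chromosome 7 they were ZC3HAV1L, LHFPL3-AS2, CROT, SOSTDC1, TP53TG1, GNG11, INHBA, HOXA5 and AGMO. Chromosome 18 held 3, ANKRD62, ASXL3 and MIX23P3 (4.76%), against 1.39% of the genes with an ACK KO mean of 50 or more. Among genes under 10 in every WT library the shares were closer, at 6.08% on chromosome 7, 4.37% on X and 2.5% on 18. Of genes switched off by the mirrored thresholds, X held 7.04% and chromosomes 7 and 18 held 2.82% each. Chromosome 22 also held 3 (4.76%), against 2.64% of the genes with an ACK KO mean of 50 or more. Chromosome 1 held 6 genes, and chromosomes 2, 10, 13, 20 and 21 held none, although chromosome 2 had 865 genes with an ACK KO mean of 50 or more. The genes left out by symbol shape these counts. With them, 12 genes passed the thresholds on chromosome 7, 10 on X, 4 on 18, 6 on 19 and 1 on 21. The other tested genes of chromosome 7 had a median log2 difference of 0.38 and 84.1% of them lay above 0, against a median of -0.02 and 48.5% on X. On chromosome 18 that median was 0.17, and 13.0% of the other tested genes were called higher. Chromosome 5, with SPEF2, GPX8 and PCDHB5, had a median of -0.62 over its other tested genes. Chromosome 20, with a median of 0.54, held no gene of the set. A copy-number difference between the lines was not tested. The counts per chromosome carry no test.

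**Figure D3:**
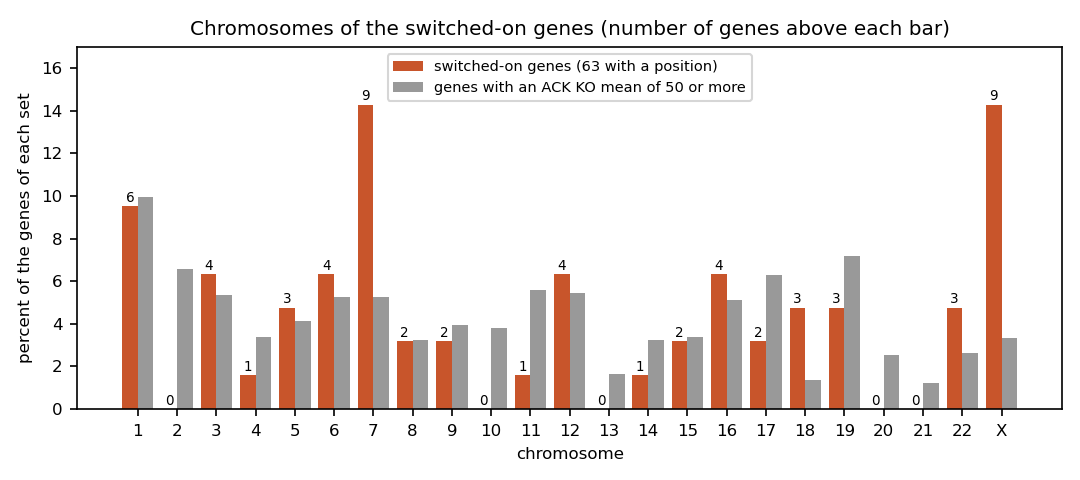
Percent of the 63 switched-on genes with a position (orange) and percent of genes with an ACK KO mean of 50 or more (grey) on each chromosome, with the number of switched-on genes above each orange bar. Chromosomes 7 and X hold 9 genes each, and on 7, 18, 22 and X the orange bar stands well above the grey one.

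Genes that the rule did not use were then read beside the set. For each of the 63 genes the nearest tested gene on either side that had not itself passed the thresholds was taken, which gave 120 neighbours. Of these, 24 (20%) were called higher in ACK KO, 7 lower and 89 were not called, against 5.37% called higher and 4.96% called lower among all genes tested. With the replicate block 44 neighbours (36.7%) were called higher, against 19.7% of all genes tested. The neighbours called higher numbered 11 without WT replicate 3, 13 without ACK KO replicate 3 and 14 without WT replicate 2, against 2.40%, 2.06% and 2.91% of all genes in the same fits. A higher neighbour was found for 23 of the 63 genes, and 35 had no called neighbour. No distance limit was set, and the median distance of a neighbour was 111 kb. Neighbours called higher lay from 0.671 kb (MAP3K9 from MAP3K9-DT) to 3152 kb away (SNX19 from JAM3). SNX19 was close to the threshold (limma adjusted p = 0.0499). These are counts with no test of the difference, since genes next to each other are not independent. The 3 neighbours with the smallest p were LRRK2, ENSG00000279285 and CNN3. LRRK2, a kinase known from Parkinson disease that lies 288 kb from C12orf40, went the other way and was at 0 in all 3 ACK KO libraries, against 404, 206 and 250.1 in WT (limma adjusted p = 8.18e-05). ENSG00000279285, between ANKRD62 and MIX23P3, had 29.4, 39.3 and 28.9 in ACK KO and 0 in WT (limma adjusted p = 0.00062). CNN3, an acidic calponin 355 kb from F3, had 685, 603 and 681 in ACK KO, against 139, 95.3 and 100.5 in WT (2.56, SE 0.22; limma adjusted p = 0.000882).

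Calls were counted by distance as well. Among tested genes outside the set, 10 of 17 that overlap a switched-on gene were called higher (58.8%), 16 of 70 within 50 kb (22.9%), 13 of 179 between 50 and 200 kb (7.26%), 36 of 745 between 200 and 1000 kb (4.83%) and 725 of 15320 farther away or on a chromosome with none (4.73%). Without chromosomes 5, 7 and 20, whose medians were shifted, the shares were 56.2%, 11.3%, 5.77%, 3.51% and 4.07%. The kit was stranded, but the sources used here do not say whether the counting used strand, so reads of overlapping genes on opposite strands may be shared. Opposite-strand genes called higher were SSPN over BHLHE41, HOXC13 over HOXC13-AS, ALDH1A1 over CYP1D1P, LRRC49 over THAP10, PIR over BMX and CRISPLD2 over ENSG00000279622. ALDH1A1 and CRISPLD2 each lost the call in 3 of 6 fits without a single library, with adjusted p up to 0.0768 and 0.0634, both without WT replicate 3. Same-strand ones were HOXA3 over HOXA5, SNHG14 over PWAR5, ENSG00000280268 over SPATA22 and ENSG00000267733 over MIX23P3. SLC2A13, which overlaps C12orf40 on the opposite strand, fell (-1.50, SE 0.32; limma adjusted p = 0.0303), a call lost in 4 of 6 fits without a single library, with adjusted p up to 0.128 without ACK KO replicate 3. GDAP1 over JPH1, TRPV3 over SPATA22, NCAPD3 over JAM3, F8 over F8A1, TM4SF19-AS1 and LIPE-AS1 were not called, although the block called GDAP1 (adjusted p = 0.00556) and TRPV3 (adjusted p = 0.0251).

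**Figure D4:**
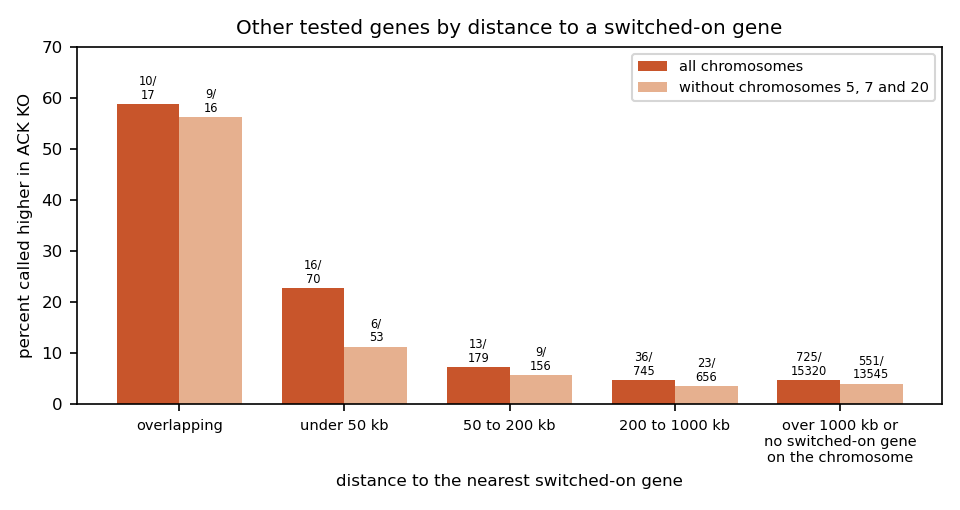
Percent of tested genes outside the set called higher in ACK KO (limma adjusted p under 0.05), by distance to the nearest switched-on gene, over all chromosomes (dark) and without chromosomes 5, 7 and 20 (light), with the number called and the number tested above each bar. The share is 58.8% among overlapping genes and 4.73% beyond 1000 kb.

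Several members sat in stretches where other genes were called higher as well. The loci and other genes named below were chosen after their values were seen. In the Prader-Willi region of chromosome 15, PWAR5 at chr15:24985053-24988232 lies inside SNHG14, the long host transcript of imprinted small nucleolar RNAs. SNHG14 had 2665, 2301 and 2498 in ACK KO, against 14.9, 10.8 and 10.4 in WT (log2 difference 7.59, SE 0.23; limma adjusted p = 3.78e-05). SNRPN, the splicing protein gene at the start of the same unit, had 1036, 896 and 992 in ACK KO and 0 in WT, and SNURF from the same transcript had 40.8, 41.98 and 21.7 in ACK KO and 0 in WT. These genes are normally expressed from the paternal copy only. UBE3A, a ubiquitin ligase gene nearby, was not called (log2 difference -0.26; limma adjusted p = 0.398), but was called lower with the block (adjusted p = 0.0148).

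At the HOXA cluster on chromosome 7, patterning genes around HOXA5 were called higher. HOXA2 (3.43, SE 0.44) and HOXA3 (3.08, SE 0.22) kept the limma call in each fit without a single library. HOXA6 (2.77, SE 0.57; limma adjusted p = 0.0261), HOXA-AS2 (2.12, SE 0.38; limma adjusted p = 0.0169) and HOTAIRM1 (1.45, SE 0.35; limma adjusted p = 0.0473) were higher too. In the same order, they kept the call in only 1, 3 and 1 of 6 fits without a single library. Their limma adjusted p rose to 0.0996, 0.0789 and 0.166, each without ACK KO replicate 3. SKAP2, beside the cluster, was higher by 1.36 (SE 0.19). At the far end HOXA11-AS went the other way, at 0 in ACK KO against 31.3, 17.4 and 19.1 in WT (limma adjusted p = 0.00143). In the HOXC cluster on chromosome 12, HOXC13 had 794, 800.3 and 747 in ACK KO, against 214, 184 and 161 in WT (2.07, SE 0.18; limma adjusted p = 0.000955), beside its antisense partner HOXC13-AS. HOXC12 was higher by 1.64 (SE 0.36; limma adjusted p = 0.035), a call lost in 5 of 6 fits without a single library, with adjusted p up to 0.115 without WT replicate 3. HOXC11 (1.97, SE 0.54; limma adjusted p = 0.0676, 0.000655 with the block) and HOXC10 (1.97, SE 0.57; limma adjusted p = 0.0796, 0.000486 with the block) were called only with the block. HOXC6, HOXC8 and HOXC9, further along the cluster, were called in neither fit, with log2 differences of 0.02, 0.16 and -0.32. HOXC4, beyond them, was again called only with the block (1.17, SE 0.30; limma adjusted p = 0.0553, 0.0119 with the block).

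The protocadherin beta cluster lies on chromosome 5, where most genes were lower, yet PCDHB5 and several others were higher there. PCDHB2 had 102, 109 and 79.2 in ACK KO, against 2.26, 7.07 and 13.6 in WT (3.73, SE 0.57; limma adjusted p = 0.00916). PCDHB8, PCDHB13, PCDHB14 and PCDHB16 were higher by 2.81, 2.67, 1.85 and 2.23. In the same order, they kept the call in 3, 5, 1 and 1 of 6 fits without a single library. The limma adjusted p rose to 0.0624 and 0.0524 for PCDHB8 and PCDHB13 without ACK KO replicate 3. It rose to 0.113 and 0.156 for PCDHB14 and PCDHB16 without WT replicate 3. PCDHB15, of the same cluster, was called in neither fit (0.50, SE 0.68; limma adjusted p = 0.729). TAF7, a general transcription factor gene just beyond the cluster, fell (-0.96, SE 0.11; limma adjusted p = 0.00353). Of the gamma protocadherins beyond TAF7, PCDHGA4, PCDHGB2, PCDHGB3, PCDHGA6 and PCDHGB4 were called in neither fit. PCDHGA1 was called only with the block, as lower (-1.62, SE 0.41; limma adjusted p = 0.0543, 0.0136 with the block). Reads of these single-exon relatives can be shared, and PCDHB5 has 19.8% of its transcript words in other genes.

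CROT and TP53TG1 start 0.166 kb apart on opposite strands of chromosome 7. Further along, ABCB1, which codes for the drug-efflux pump P-glycoprotein, had 731, 479 and 715 in ACK KO, against 11.4, 8.98 and 10.02 in WT (5.83, SE 0.28; limma adjusted p = 9.15e-05). It missed the set because 2 WT libraries were above 10. RUNDC3B, which overlaps ABCB1, was higher by 3.35 (SE 0.38; limma adjusted p = 0.00287). ABCB4, the phosphatidylcholine transporter gene between CROT and ABCB1, had 131, 32.2 and 18.5 in ACK KO, against 10.3, 2.44 and 4.03 in WT, and was not called (limma adjusted p = 0.0691; 0.00214 with the block). On the other side TMEM243 was called in neither fit (0.19, SE 0.24; limma adjusted p = 0.708). Beyond it, DMTF1 (limma adjusted p = 0.222, 0.00145 with the block) and ELAPOR2 (limma adjusted p = 0.0504, 0.000183 with the block) were called higher only with the block, as was DMTF1-AS1 (limma adjusted p = 0.0808, 0.0207 with the block), and ENSG00000261462, between ELAPOR2 and DMTF1, was higher by 3.38 (SE 0.50; limma adjusted p = 0.00842).

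On chromosome 12 the genes around BHLHE41 were higher as well. RASSF8, a RAS-association domain gene, was higher by 2.80 (SE 0.43; limma adjusted p = 0.00907), ITPR2, an IP3 receptor of intracellular calcium stores, by 2.16 (SE 0.27; limma adjusted p = 0.00434), and SSPN, sarcospan of the muscle membrane, had 32.3, 16.9 and 69.3 in ACK KO and 0 in WT. RASSF8-AS1 was higher by 3.08 (SE 0.57), a call lost in 3 of 6 fits without a single library, with adjusted p up to 0.0818 without ACK KO replicate 3. On chromosome 15, UACA, next to THAP10, had 833, 346 and 458 in ACK KO, against 20.1, 0 and 0.622 in WT (limma adjusted p = 0.00916), and LRRC49, which overlaps THAP10, was low but higher by 3.39 (SE 0.46). On X, PIR, which overlaps BMX, was higher by 2.52 (SE 0.30; limma adjusted p = 0.0035). No wider stretch was seen there, since PIGA, CLTRN, CA5BP1, CA5B and ZRSR2 nearby were called in neither fit. AP1S2 was lower with the block only (-0.44, SE 0.17; limma adjusted p = 0.18, 0.00334 with the block). On chromosome 14, MAP3K9-DT starts 0.671 kb from the kinase gene MAP3K9, which was higher by 2.88 (SE 0.41; limma adjusted p = 0.00682). MAGED4B had lower genes on both sides, since MAGED1 (-3.32, SE 0.30; limma adjusted p = 0.00112) and XAGE1A both fell. Among members themselves, ANKRD62 and MIX23P3 lie 81.6 kb apart, CASC15 and HDGFL1 201 kb and AGMO and SOSTDC1 899.5 kb.

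**Figure D5:**
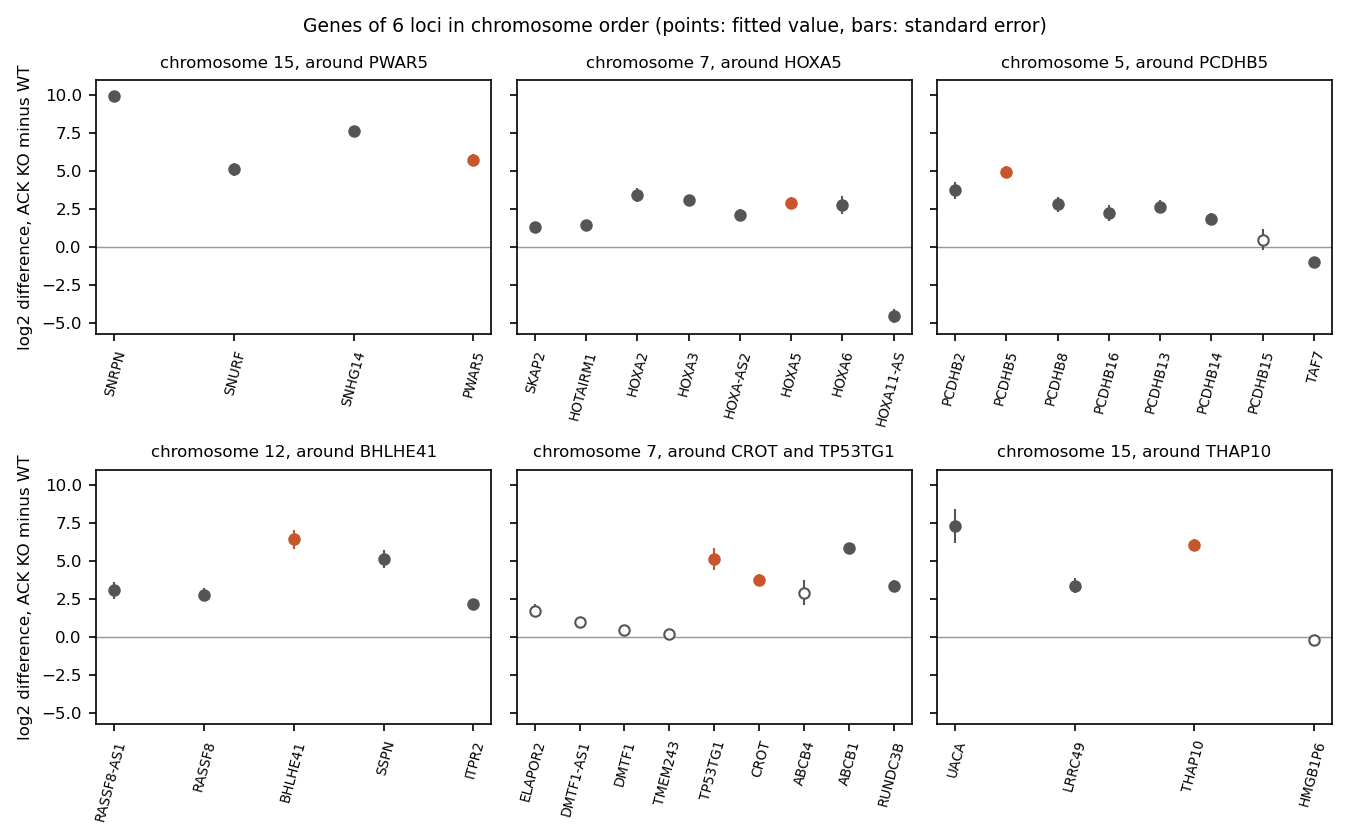
Fitted log2 difference, ACK KO minus WT, of genes with a symbol at 6 loci in chromosome order, without the gamma protocadherins, with standard errors as bars. Orange points are switched-on genes, filled grey points other genes called by limma and open points genes not called. PWAR5, HOXA5, PCDHB5, BHLHE41, CROT, TP53TG1 and THAP10 stand among other higher genes, while HOXA11-AS and TAF7 lie below 0. PCDHB15 is among the open points.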

How the data were processed

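RNA-seq of 3 ACK KO and 3 WT libraries of K562 cells was analysed from 1 table of 19498 genes. Its values are a signal, normalised read counts per gene that the authors deposited without log transformation; they are not whole reads, so no count model was used and depth is unknown. Per the submitters' processing notes, R 3.6.1 with DESeq2 1.26.0, Salmon 1.1.0, SAMtools, FastQC 0.11.7 and STAR 2.7.2b were used with GRCh38, with no role or order given. Which annotation release they used was not given in the sources used here. RNA had an integrity number of 10 in every sample, per the labels.

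Here log2(value + 1) was fitted with limma 3.58.1 in R 4.3.3 with an intensity trend, ACK KO minus WT, for 16658 genes with 10 or more in at least 3 of 6 libraries, with Benjamini-Hochberg adjustment over all of them and a threshold of 0.05. The fit was tested on simulated data. Tables were made with Python 3.11.15. Symbols came from a name table that held 19392 of the identifiers, positions and exon lengths from GENCODE 29, which held 19112, and promoters from RefSeq (GRCh38.p14). Transcript words of 31 bases were compared between genes.

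Deviations from the group mean correlated between libraries with the same replicate number (0.699, 0.521 and 0.342 for replicates 1, 2 and 3, each above 0.1), so same-numbered libraries were taken as pairs, and a second fit had the replicate number as a block. What a number stands for is not in the labels, and replicate 2 of one genotype also correlated with replicate 3 of the other (0.281 and 0.257). Deviations cancel within a genotype, so a replicate 1 effect shared by both genotypes also raises the correlations for replicates 2 and 3. The limit of 0.1 thus says little about pairing of replicates 2 and 3. Blocked values or counts are given where the block changed a call.

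Every switched-on gene with a symbol is named, except 1 that enters the counts but is not reported here. Values per library are given for an ACK KO mean of 100 or more, and otherwise, for genes with a symbol, the mean and the highest WT value. Of neighbours and family lists up to 3 called genes with the smallest p are named, and others were chosen after their values were seen. The set, the lists and the tests were chosen with earlier results of these data known. Alternatives were other pseudocounts, filters, scalings and thresholds, no trend, the block, and leaving out each library.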

Additional observations from a re-analysis of the deposited data

How the results depend on the processing

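Changing the thresholds changed how many genes were switched on, from 69 to 31 with an ACK KO mean of 100 or more, 140 with 25 or more, 45 with every ACK KO library at 50 or more, 40 with every WT library under 5 and 126 with every WT library under 20. Leaving out 1 library in turn gave 56 to 113. Genes called between genotypes numbered 1721, and 726 to 2183 without 1 library, 6612 with the replicate block and 4731 without replicate 1 of both genotypes, an alternative chosen after seeing the data. Called neighbours numbered 31, and 15 to 33 without 1 library, 64 with the block and 47 without replicate 1 of both. Called relatives in the family lists numbered 11, and 7 to 13 without 1 library, 29 with the block and 24 without replicate 1 of both. The cause was not tested, although each fit without a library has fewer samples. Equal library sums moved the split of calls to 1057 higher and 650 lower, against 894 higher and 827 lower, and the median log2 difference to 0.08. Other pseudocounts, filters, the intensity trend and TMM scaling kept the counts within 1.5 times, and none of 53 called genes named outside the set changed sign. FN1 (limma adjusted p = 0.0534), PCDHB16 (0.0537), HOTAIRM1 (0.0595) and SLC2A13 (0.0647) lost the call with equal library sums, HOXC12 (0.0523) and HOTAIRM1 (0.062) without the trend, and PCDHB16 (0.0507) without the filter. Of these 53 genes, which leave out SNRPN, SNX19 and ENSG00000280268, 34 kept the call in every fit without 1 library, and the block took no such call away. Depth is unknown, so how far sampling limits low values such as the WT ones cannot be given.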
